A study of Mus musculus with 12 samples.

Results

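The genes described here are the mouse ABC transporters, taken as every gene whose symbol is Abc, a subfamily letter from a to g, a number and at most 1 further letter. Gene symbols were looked up by Ensembl identifier without its version, and the pattern found 50 of the 55487 genes in the count table, of which 55141 had a symbol in the annotation. Bulk RNA sequencing was done on 12 mouse libraries in 4 groups of 3: crypts of the small intestine (SI tissue), small intestinal crypt cells cultured as a monolayer for 24 h (SI monolayers), crypts of the large intestine (LI tissue) and their 24 h cultures (LI monolayers). Library totals ran from 59016196 to 76216530 counts, and 3 counts in a library, the floor used here for a gene at 0, correspond to 0.0394 to 0.0508 CPM, a gene's counts relative to all counts of its library. Floors cover counting error only, while intervals come from the fit over libraries.

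All 4 groups came from untreated C57BL/6 mice (C57BL/6NHsd), female and male, 6 to 10 weeks old, and no group carried a genetic change. A tissue library is the fresh crypts of 1 mouse, and a monolayer library is a pool of culture wells. How many mice the pools came from is not given. The spread between monolayer libraries may therefore be that of wells and not of animals. The p-values below, which use 1 fit over all groups, carry the same limit, most of all between monolayers. SI crypts were taken from the jejunum and released with EDTA, and LI crypts were digested with collagenase D, dispase and DNase before EDTA, so region and way of isolation cannot be told apart. By the methods, large intestines for culture were taken from the same mice as small intestines, and which libraries share a mouse is not given. Crypts were plated on Matrigel in a seeding medium with CHIR-99021, EGF, LDN-193189, R-spondin-1, Wnt3a and Y-27632, which was replaced after 4 h by a medium with Wnt3a, EGF, Noggin and R-spondin-1. The monolayers received no drug under study, and growth medium, Matrigel and time in culture cannot be told apart as sources of a difference from tissue.

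ABC transporters are proteins that bind and hydrolyse ATP, most of them to move a substrate across a membrane. In the intestinal epithelium the efflux pumps of the B, C and G subfamilies return drugs, conjugates and bile salts to the lumen or pass them to the blood, while members of the A and G subfamilies export sterols and phospholipids. Other members work inside the cell, in mitochondria, peroxisomes and lysosomes, and the E and F subfamilies lack a membrane domain and act on ribosomes and translation.

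SI tissue replicate 3 differed from the rest of its group in cell type markers. In this library the summed level of 5 Paneth cell markers was 17897 CPM and that of 11 enterocyte markers was 13733 CPM, against 3729 and 6973 CPM for Paneth markers and 21844 and 19700 CPM for enterocyte markers in replicates 1 and 2. The same library held the lowest SI tissue values of Abca1, Abcb1a, Abcg5 and Abcg8, with Abca1 at 1.49 CPM against 7.14 and 10.1 CPM and Abcb1a at 114 CPM against 207 and 191 CPM. Its part in the results was not tested beyond leaving it out, and each ABC gene whose result rests on it is given with and without it. In bulk RNA, fewer cells of a type and less RNA per cell cannot be told apart. LI tissue replicate 1 differed from its group in some single markers. Anpep was at 38.3 CPM in this library against 9.60 and 5.49 CPM in replicates 2 and 3, and Myh11 at 9.68 against 0.689 and 0.287 CPM. Olfm4 was at 6.46 CPM against 0.159 and 0.0783 CPM, and Apoa1 at 50.2 CPM against 18.5 and 2.56 CPM. Abcc2 was also highest in this library among LI tissue. The summed enterocyte markers of this library, of which Anpep was a small part, did not stand apart, at 2237 CPM against 2295 and 1742 CPM. The part of LI tissue replicate 1 in the results was not tested beyond leaving it out.

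Of the 50 genes, 35 were detected in SI tissue, 38 in LI tissue, 36 in SI monolayers and 35 in LI monolayers, where detected means at least 10 counts in every library of the group. 31 were detected in all 4 groups and 40 in at least 1. The 10 detected in no group were Abca6, Abca8a, Abca15, Abca16, Abca17, Abcb5, Abcb11, Abcc9, Abcc12 and Abcd2. Abca16 and Abcb5 held 0 counts in all 12 libraries, which allows a level of up to 0.0508 CPM in the library with the fewest counts. Across the 12 libraries the others ran from 0 to 4 counts for Abca15, 0 to 6 for Abca6, 0 to 10 for Abca17, 0 to 13 for Abcc9, 0 to 14 for Abca8a, 0 to 16 for Abcc12, 0 to 20 for Abcb11, the bile salt export pump of the liver, and 4 to 20 for Abcd2. With a stricter minimum of 1 CPM in every library of a group, 29 genes passed in SI tissue, 32 in LI tissue, 33 in SI monolayers and 31 in LI monolayers, 28 of them in all 4 groups and 15 in none.

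Several members were detected in some groups and not in others. Abca4, Abca9, Abca12, Abca13 and Abcb4 were detected in another group but not in SI tissue, and Abca4 and Abca8b were detected elsewhere but not in LI tissue. In SI monolayers these were Abca9, Abca13, Abcg3 and Abcg4, and in LI monolayers Abca9, Abca13, Abca14, Abcg3 and Abcg4. Abca13 was at 0 in all 6 monolayer libraries and Abcg3 at 0 in all 3 LI monolayer libraries.

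TPM divide counts by exon length and rescale each library to the same total, so that levels of different genes can be compared. By TPM the order of the ABC genes differed between the 4 groups. Abcg5 led SI tissue at a mean of 175 ± 39.4 TPM (SD, n = 3), ahead of Abcd3 at 101 ± 14.5 and Abcg8 at 99.5 ± 19.6 TPM, whose spreads overlapped. Abcb1a led SI monolayers at 196 ± 6.39 TPM, ahead of Abcf1 at 153 ± 5.17 and Abcc3 at 138 ± 1.92 TPM. In LI tissue Abcc3 and Abcb1a came first at 140.5 ± 11.7 and 136 ± 9.38 TPM, which did not differ beyond their spread. Abcb1a led LI monolayers at 271 ± 3.64 TPM, followed by Abcc3 at 196 ± 3.32 TPM. The TPM of all 50 ABC genes added up to 1108, 1169 and 891 in SI tissue, 1444, 1445 and 1446 in SI monolayers, 820.5, 822 and 755 in LI tissue and 1251, 1247 and 1262 in LI monolayers. These TPM sums were higher in each monolayer library than in any tissue library, while mitochondrial transcripts took 4.56 to 9.16% of counts in SI tissue, 2.25 to 2.59% in LI tissue and 0.472 to 0.750% in the monolayers; the part of that share in the TPM sums was not tested.

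**Figure D1:**
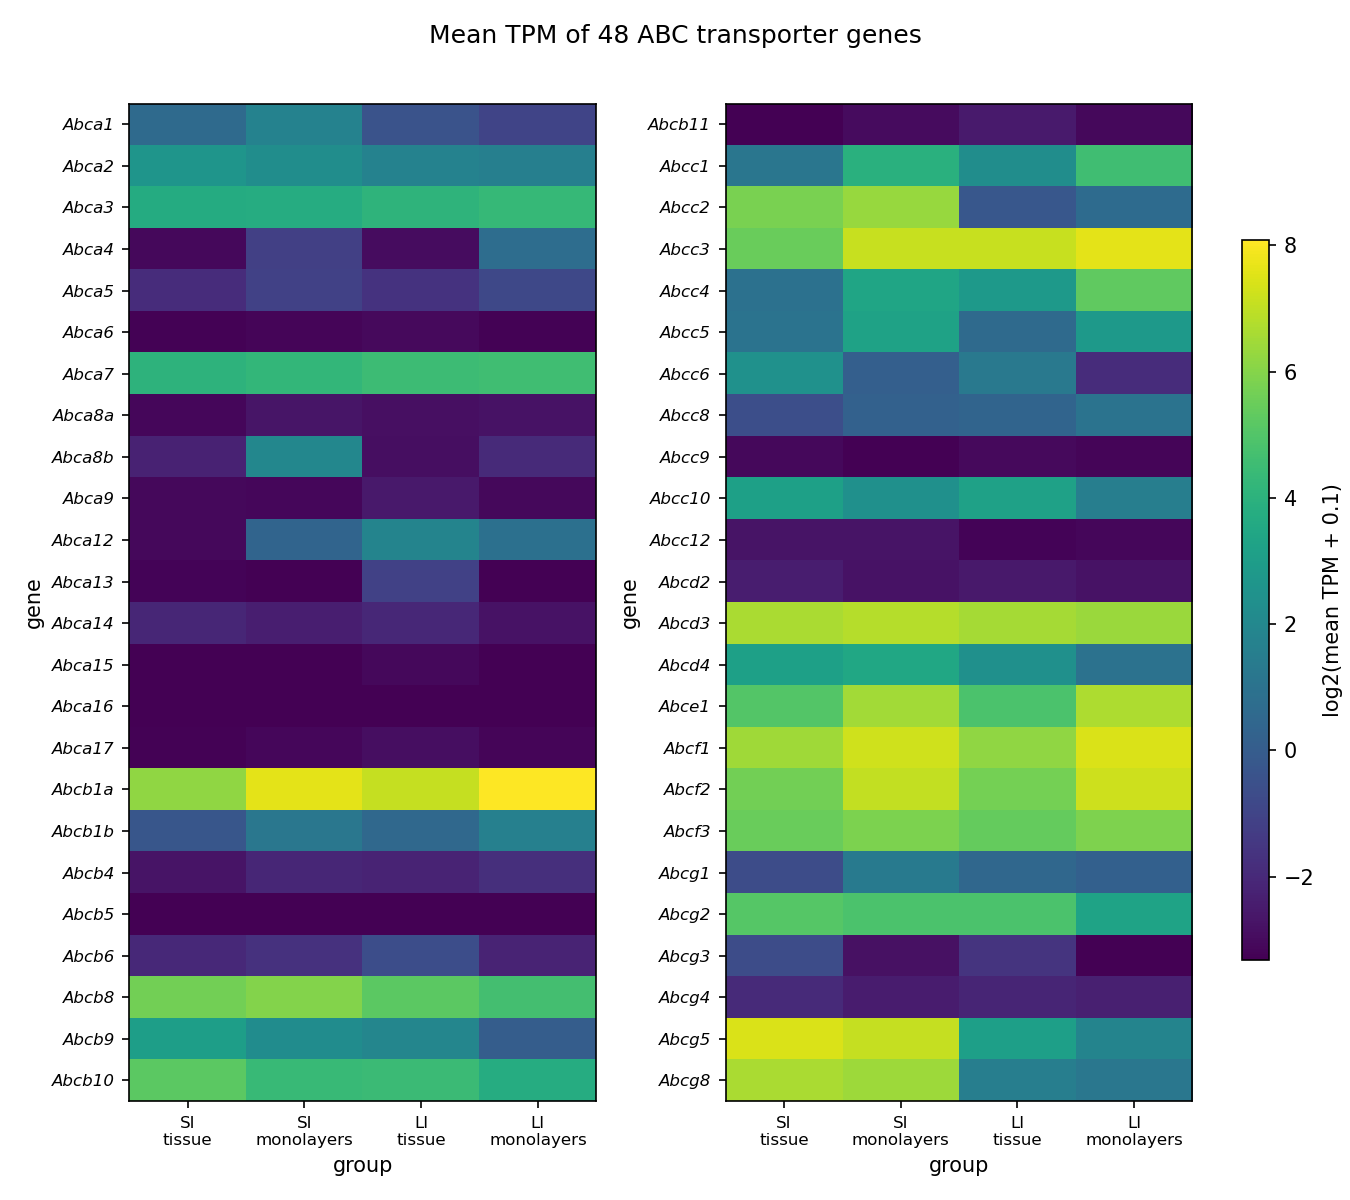
Mean TPM of 48 ABC transporter genes (vertical axis, gene) in the 4 groups (horizontal axis, 3 libraries each), coloured on a log2 scale after adding 0.1. Abcb1a and Abcc3 are bright in all 4 groups, Abcg5, Abcg8 and Abcc2 are bright in the SI groups, and Abca16 and Abcb5, at 0 counts in every library, are dark in all 4 groups.

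In the small intestine several efflux pumps, 2 ribosome factors and 3 lipid transporters of the A subfamily were higher in monolayers than in their tissue of origin, and 2 mitochondrial or lysosomal transporters were among those that were lower. The conjugate pump Abcc1 stood at a mean of 13.4 ± 1.54 CPM in SI tissue and 79.2 ± 0.363 CPM in SI monolayers (SD, n = 3), and the nucleotide and prostanoid pump Abcc4 at 4.91 ± 0.300 and 23.2 ± 0.299 CPM. Abcc6, which mediates release of ATP from cells, fell from 13.1 ± 3.12 to 1.97 ± 0.175 CPM. CPM here are scaled by the trimmed mean of M values (TMM), and a gene is called when edgeR's quasi-likelihood test gave an adjusted p under 0.05 and the absolute log2 fold change was at least 1. 41 of the 50 ABC genes had enough counts to be tested. Of these 20 were called, against 26.1% of all 19581 genes tested; 13 were higher in monolayers, a direction called for 9.71% of all genes, and 7 were lower, against 16.4%. The median log2 fold change of the 41 genes was 0.040 and that of all tested genes -0.049, and the median of the 41 was the same with Abca13, a gene with a group at 0, set to its bound. Genes passed the filter through the group in which they were high, so these shares describe the tested genes and not the family.

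In the large intestine 4 efflux pumps and 3 ribosome factors rose in monolayers, and more ABC genes fell than rose. Abcc1 stood at 26.2 ± 1.60 CPM in LI tissue and 120.1 ± 0.576 CPM in LI monolayers, and Abce1, a factor that recycles ribosomes, at 63.3 ± 3.46 and 202 ± 5.05 CPM (SD, n = 3). Abcg2, an apical drug and urate pump, fell from 87.6 ± 6.74 to 25.98 ± 1.02 CPM, and Abcd4, which passes vitamin B12 out of lysosomes, from 15.3 ± 0.155 to 4.89 ± 0.592 CPM. 21 of the 41 tested ABC genes were called, against 38.0% of all genes: 9 higher in monolayers (14.5% of all genes) and 12 lower (23.5%). Their median log2 fold change was -0.30, unchanged with Abca13 and Abcg3 at their bounds, and that of all genes -0.052. Upper quartile scaling shifted the log2 fold change of all genes in this comparison by a median of -0.12. 8 genes were higher in the monolayers of both regions: Abca4, Abca8b, Abcb1b, Abcc1, Abcc4, Abcc5, Abce1 and Abcf2. Abca13, Abcb9, Abcc6, Abcc10 and Abcg3 were lower in both. Abca12 was called in opposite directions.

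Between the tissues the sterol pumps Abcg5 and Abcg8 and the conjugate pump Abcc2 were far higher in the small intestine, and the basolateral pumps Abcc3 and Abcc4 were higher in the large intestine. Abcc2 stood at 199.9 ± 41.4 CPM in SI tissue and 2.35 ± 1.28 CPM in LI tissue (SD, n = 3), and Abcg8 at 157 ± 28.1 and 3.91 ± 0.340 CPM. Abcc3 stood at 106 ± 8.66 CPM in SI tissue and 295 ± 21.6 CPM in LI tissue. 15 of the 41 tested ABC genes were called, against 22.7% of all genes: 9 higher in SI tissue (11.6% of all genes) and 6 lower (11.1%). Their median log2 fold change of SI over LI tissue was 0.32, and that of all genes 0.055.

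In the monolayers the regional difference of Abcc2, Abcg5 and Abcg8 was still present after 24 h. Abcc2 stood at 239 ± 3.997 CPM in SI monolayers and 4.16 ± 0.528 CPM in LI monolayers, and Abcg5 at 127 ± 3.08 and 3.11 ± 0.342 CPM (SD, n = 3). 15 of the 41 tested ABC genes were called, against 21.2% of all genes: 13 higher in SI monolayers (12.4% of all genes) and 2 lower (8.88%). The median log2 fold change of SI over LI monolayers was 0.21 for these genes, with Abcg3 as fitted or at its bound, and 0.021 for all genes. Abca8b, Abcb9, Abcc2, Abcc6, Abcg3, Abcg5 and Abcg8 were called higher in the small intestine in both tissue and monolayers, Abcc4 was lower in both, and Abcg1 was called in opposite directions. The 4 comparisons share groups, so a call in one is not independent of a call in the next.

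Whether the difference between monolayers and tissue was itself different between regions was tested as an interaction, the log2 change in SI minus that in LI. 9 of the 41 ABC genes were called, against 19.96% of all genes; all 9 were positive (11.4% of all genes) and 0 negative (8.51%). In edgeR 7 ABC genes had a negative value at an unadjusted p under 0.05, 0 of them with an absolute log2 value of at least 1. The 9 were Abca8b, Abca12, Abcb6, Abcc3, Abcc6, Abcd4, Abcg1, Abcg2 and Abcg3. DESeq2 called 9 positive and 0 negative, 8 of them the same genes; it did not call Abcg3 (2.88) and called Abca13 (5.24), and both values rest on groups at 0. The median was 0.33 for the 41 genes and -0.00020 for all genes; Abca13 and Abcg3 have groups at 0 and no bound in this test.

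The 9 efflux pumps for drugs and conjugates were all tested. 6 were higher and 1 lower in SI monolayers than in SI tissue, and 4 were higher and 2 lower in LI monolayers than in LI tissue, with median log2 fold changes of 1.34 and 0.83. Between tissues 1 was higher in SI and 2 in LI, and between monolayers 2 were higher in SI and 1 in LI. The median log2 fold changes of SI over LI were -0.68 and -0.35. Of all genes, 9.71% were called higher and 16.4% lower in SI monolayers than in tissue, and 14.5% and 23.5% in LI. Between tissues 11.6% were higher in SI and 11.1% in LI, and between monolayers 12.4% and 8.88%. These shares of all genes also apply to the gene groups and marker lists below.

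Abcb1a, a P-glycoprotein gene whose product pumps hydrophobic drugs out of the apical membrane, stood at 207, 191 and 114 CPM in SI tissue and 273, 291 and 261 CPM in LI tissue. Abcb1a in monolayers stood at 390.2, 370.4 and 369 CPM in SI and 496, 482 and 493 CPM in LI. The monolayers of each region lay above their tissue in every library, LI lay above SI within each preparation, and SI tissue replicate 3 was the lowest of the 12. The log2 fold change of Abcb1a was 1.14 (SE 0.18, edgeR adjusted p = 0.000364) in SI, which was called, and 0.83 (SE 0.18, edgeR adjusted p = 0.00216) in LI, which was not; the interaction was 0.31 (edgeR adjusted p = 0.357). Without SI tissue replicate 3 the SI value was 0.92 and the call was lost. Between regions the log2 fold change of SI over LI was -0.69 (edgeR adjusted p = 0.00871) in tissue and -0.38 (edgeR adjusted p = 0.104) in monolayers, neither of them called.

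Abcb1b, the second P-glycoprotein gene of the mouse, was much scarcer, at 2.87, 2.90 and 1.67 CPM in SI tissue and 4.47, 4.18 and 3.24 CPM in LI tissue. Abcb1b in monolayers stood at 7.23, 5.62 and 5.88 CPM in SI and 8.51, 7.19 and 8.22 CPM in LI. Monolayers were above tissue in every library of both regions, and the monolayers of the 2 regions overlapped. It rose in SI by 1.34 (SE 0.19, edgeR adjusted p = 1.85e-05) on the log2 scale and in LI by 1.01 (SE 0.19, edgeR adjusted p = 0.000161). The LI value lies at the threshold: it was 0.88 without LI tissue replicate 3, 0.89 and 0.91 without LI monolayers replicates 1 and 3, 0.94, 0.94 and 0.94 without SI monolayers replicates 1, 2 and 3, 0.98 with DESeq2, 0.99 without a filter on low counts and 0.89 with upper quartile scaling, none of them called. Abcb1a and Abcb1b lie close together on chromosome 5 and share sequence: 16.3% of the 50-base stretches of Abcb1a exons occur in Abcb1b and 11.1% of those of Abcb1b occur in Abcb1a, so reads from these stretches cannot be assigned and the Abcb1b values are uncertain. An unnamed transcript on the other strand, Gm42686, overlaps 10.1% of the exon bases of Abcb1a, and whether counting respected the strand is not stated.

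Abcg2, which exports drugs, porphyrins and urate across the apical membrane, stood at 119, 123 and 102 CPM in SI tissue and 88.6, 93.7 and 80.4 CPM in LI tissue. Abcg2 in monolayers stood at 85.2, 81.5 and 80.95 CPM in SI and 27.2, 25.4 and 25.4 CPM in LI. The 3 LI monolayer libraries were far below the other 9, and the SI libraries of each preparation lay above the LI ones. It fell in LI monolayers, with a log2 fold change of -1.75 (SE 0.073, edgeR adjusted p = 3.26e-12), and the value in SI was -0.48 (SE 0.070, edgeR adjusted p = 2.06e-05), which was not called. The interaction was 1.28 (edgeR adjusted p = 4.52e-08) and was called. SI monolayers exceeded LI monolayers by 1.67 (SE 0.073, edgeR adjusted p = 2.09e-11) and the tissues differed by 0.39 (edgeR adjusted p = 0.000176), the first of which was called.

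Abcc1, a basolateral pump for glutathione conjugates and leukotrienes, stood at 11.7, 14.6 and 13.98 CPM in SI tissue and 27.5, 26.8 and 24.4 CPM in LI tissue. Abcc1 in monolayers stood at 79.4, 79.3 and 78.8 CPM in SI and 121, 120 and 119.6 CPM in LI. The groups did not overlap, each monolayer group being several times its tissue and LI being above SI in both preparations. It rose by 2.56 (SE 0.073, edgeR adjusted p = 1.75e-13) in SI and by 2.20 (SE 0.071, edgeR adjusted p = 1.77e-13) in LI on the log2 scale; the interaction was 0.36 (edgeR adjusted p = 0.00655), under the fold threshold. Between tissues the log2 fold change of SI over LI was -0.96 (edgeR adjusted p = 1.08e-08), just short of a call, and it passed the threshold when LI tissue replicate 3 (-1.01), SI tissue replicate 2 (-1.02), any LI monolayer library (-1.04, -1.04 and -1.04) or any SI monolayer library (-1.04, -1.04 and -1.04) was left out. It was also called with upper quartile scaling (-1.04), without a filter on low counts (-1.02) and with only the 2 groups compared (-1.03).

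Abcc2, the apical pump for glucuronide, glutathione and bilirubin conjugates, stood at 241, 199 and 159 CPM in SI tissue and 3.62, 2.39 and 1.06 CPM in LI tissue. Abcc2 in monolayers stood at 242, 239 and 234 CPM in SI and 3.61, 4.66 and 4.21 CPM in LI. All SI libraries lay far above all LI libraries, and tissue and monolayers overlapped in each region. SI exceeded LI by 6.41 (SE 0.37, edgeR adjusted p = 6.82e-07) on the log2 scale in tissue and by 5.84 (SE 0.36, edgeR adjusted p = 1.08e-06) in monolayers. With 1 library left out, the tissue value ran from 6.06 to 6.86. Monolayers against tissue gave 0.26 (edgeR adjusted p = 0.466) in SI and 0.82 (edgeR adjusted p = 0.0745) in LI, neither called; without LI tissue replicate 1 the LI value was 1.27 and was called.

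Abcc3, which moves bile salts and glucuronides across the basolateral membrane, stood at 114, 107 and 96.3 CPM in SI tissue and 292, 318 and 275 CPM in LI tissue. Abcc3 in monolayers stood at 273, 278 and 279.9 CPM in SI and 359.8, 371 and 372 CPM in LI. SI tissue was the lowest group by a wide margin, and SI monolayers reached the range of LI tissue. It rose in SI monolayers by 1.39 (SE 0.064, edgeR adjusted p = 3.09e-11) on the log2 scale, while LI monolayers against LI tissue gave 0.32 (SE 0.063, edgeR adjusted p = 0.000280), which was not called, and the interaction of 1.07 (edgeR adjusted p = 8.78e-08) was called. SI over LI was -1.48 (SE 0.064, edgeR adjusted p = 1.95e-11) in tissue, a call, and -0.41 (edgeR adjusted p = 4.31e-05) in monolayers, not one.

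Abcc4, a pump for cyclic nucleotides and prostanoids, stood at 4.93, 5.20 and 4.60 CPM in SI tissue and 16.4, 15.8 and 15.8 CPM in LI tissue. Abcc4 in monolayers stood at 23.5, 23.1 and 22.97 CPM in SI and 84.1, 81.05 and 86.2 CPM in LI. No 2 groups overlapped, and LI monolayers were the highest. It rose by 2.24 (SE 0.064, edgeR adjusted p = 1.65e-13) in SI and 2.39 (SE 0.060, edgeR adjusted p = 1.09e-14) in LI on the log2 scale, with an interaction of -0.15 (edgeR adjusted p = 0.173), not called. SI over LI was -1.71 (SE 0.063, edgeR adjusted p = 3.12e-12) in tissue and -1.85 (SE 0.059, edgeR adjusted p = 5.91e-13) in monolayers, both called.

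Abcc5, another exporter of cyclic nucleotides, stood at 8.17, 8.33 and 9.28 CPM in SI tissue and 6.22, 6.75 and 3.93 CPM in LI tissue. Abcc5 in monolayers stood at 33.4, 35.2 and 36.2 CPM in SI and 21.5, 23.5 and 27.2 CPM in LI. Each monolayer group was above both tissues, and SI was above LI in both preparations. It rose by 2.02 (SE 0.16, edgeR adjusted p = 1.06e-07) in SI and 2.10 (SE 0.16, edgeR adjusted p = 5.12e-08) in LI on the log2 scale, and the interaction was -0.073 (edgeR adjusted p = 0.818). The regional log2 fold changes of 0.61 in tissue and 0.54 in monolayers were not called.

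Abcc10, a lysosomal and basolateral drug pump, moved the other way, at 27.2, 27.4 and 21.7 CPM in SI tissue and 24.5, 23.8 and 21.6 CPM in LI tissue. Abcc10 in monolayers stood at 12.1, 12.996 and 12.5 CPM in SI and 6.81, 6.23 and 6.11 CPM in LI. Both monolayer groups lay below both tissues, LI monolayers were the lowest, and the tissues overlapped. It fell in both regions, with log2 fold changes of -1.87 (SE 0.097, edgeR adjusted p = 4.92e-11) in LI and -1.02 (SE 0.093, edgeR adjusted p = 8.99e-08) in SI. The SI value lies at the threshold and was no longer called without SI tissue replicates 1 (-0.97) or 2 (-0.96), SI monolayers replicates 1 (-0.96) or 3 (-0.98), LI monolayers replicates 1, 2 or 3 (-0.98, -0.98 and -0.98), or with only the 2 groups compared (-0.99). SI over LI monolayers was 0.97 (edgeR adjusted p = 3.67e-07), a value called without LI monolayers replicate 1 (1.05) or SI monolayers replicates 1 (1.03) or 3 (1.01). The interaction was 0.85 (edgeR adjusted p = 7.5e-05), and lay at the threshold of 1 with a call without LI monolayers replicate 1.

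**Figure D2:**
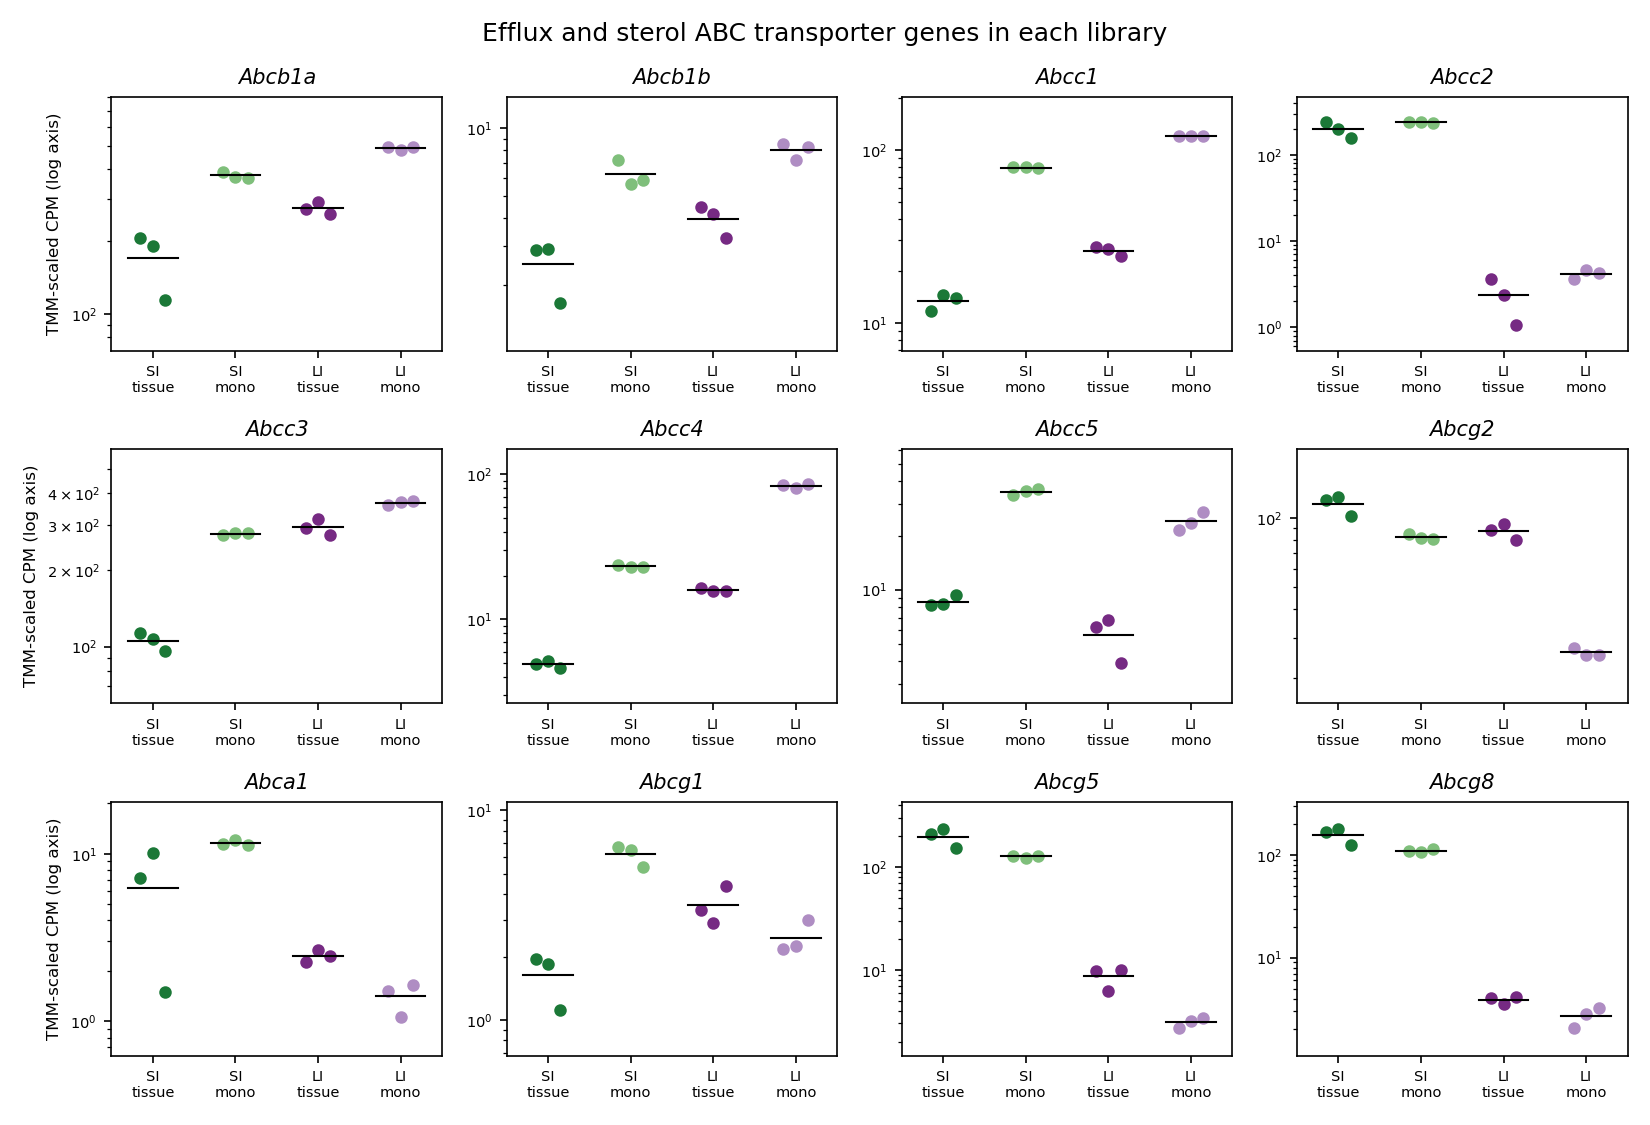
TMM-scaled CPM (log axis) of 12 efflux and sterol ABC transporter genes in each of the 12 libraries, with points for libraries and a black bar for the mean of each group of 3. Abcb1a, Abcb1b, Abcc1, Abcc4 and Abcc5 stand higher in monolayers than in the tissue of the same region, and Abcc2, Abcg5 and Abcg8 stand far higher in SI than in LI.

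Of the 8 genes for export of sterols, phospholipids and bile salts, 7 were tested and Abcb11 was not. 2 were higher in SI monolayers than in SI tissue, and 1 was lower in LI monolayers than in LI tissue, with median log2 fold changes of -0.075 and -0.52. The calls made up 28.6% of the 7 genes in SI and 14.3% in LI, against 26.1% and 38.0% of all genes. Between tissues 2 were higher in SI and 1 in LI, and between monolayers 4 were higher in SI, with medians of 0.50 and 1.32. Without a filter on low counts edgeR called Abcb11 at 4.72 in SI monolayers against tissue, -6.39 for SI over LI tissue and 6.97 in the interaction, fitted values that rest on 0 counts in all SI tissue libraries.

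Abcg5 and Abcg8 encode the 2 parts of the pump that returns cholesterol and plant sterols to the lumen. Abcg5 stood at 209.8, 233 and 154 CPM in SI tissue and 9.84, 6.24 and 9.95 CPM in LI tissue. Abcg5 in monolayers stood at 128, 124 and 129.8 CPM in SI and 2.74, 3.18 and 3.41 CPM in LI. Each SI library was above each LI library, tissue was above monolayers in both regions, and SI tissue replicate 3 was the lowest of its group. SI exceeded LI by 4.52 (SE 0.22, edgeR adjusted p = 6.93e-08) on the log2 scale in tissue and by 5.35 (SE 0.23, edgeR adjusted p = 3.8e-08) in monolayers. Abcg5 fell in LI monolayers, with a log2 fold change of -1.48 (SE 0.22, edgeR adjusted p = 0.000204), and the SI value of -0.65 (edgeR adjusted p = 0.0126) was not called; the interaction of 0.84 (edgeR adjusted p = 0.0387) was not called either, but was at 1.03 without LI monolayers replicate 3 and 1.03 without LI tissue replicate 2.

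Abcg8 stood at 168, 177 and 125 CPM in SI tissue and 4.02, 3.53 and 4.17 CPM in LI tissue. Abcg8 in monolayers stood at 109.9, 107 and 114 CPM in SI and 2.09, 2.83 and 3.25 CPM in LI. The order of the groups was the same as for Abcg5, with no overlap between groups compared. SI exceeded LI by 5.33 (SE 0.17, edgeR adjusted p = 5.82e-10) on the log2 scale in tissue and by 5.34 (SE 0.18, edgeR adjusted p = 7.73e-10) in monolayers, and monolayers against tissue gave -0.51 (edgeR adjusted p = 0.00843) in SI and -0.52 (edgeR adjusted p = 0.0235) in LI, neither of them called. The 2 genes lie head to head on chromosome 17 and their annotated exons share 82 bases on opposite strands, 3.02% of the exon bases of Abcg5, so a small share of their reads cannot be assigned.

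Abca1, which loads cholesterol onto apolipoprotein A1, stood at 7.14, 10.1 and 1.49 CPM in SI tissue and 2.26, 2.68 and 2.45 CPM in LI tissue. Abca1 in monolayers stood at 11.4, 12.1 and 11.3 CPM in SI and 1.52, 1.06 and 1.65 CPM in LI. SI monolayers were the highest group, the LI groups were all under 3 CPM, and SI tissue replicate 3 lay below the LI tissue values. SI exceeded LI monolayers by 3.03 (SE 0.57, edgeR adjusted p = 0.00155) on the log2 scale. The other contrasts were not called: 0.90 (edgeR adjusted p = 0.161) for SI monolayers against tissue, -0.80 (edgeR adjusted p = 0.243) for LI, 1.33 (edgeR adjusted p = 0.0618) between tissues and 1.70 (edgeR adjusted p = 0.103) for the interaction. Without SI tissue replicate 3 the tissue contrast was 1.80 and the interaction 1.23, both called, and without SI tissue replicate 2 SI monolayers against tissue was 1.44 and the interaction 2.23, both called. DESeq2 called the tissue contrast at 1.32.

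Abcg1, which exports cholesterol to high-density lipoprotein, was low, at 1.96, 1.85 and 1.11 CPM in SI tissue and 3.34, 2.92 and 4.38 CPM in LI tissue. Abcg1 in monolayers stood at 6.72, 6.49 and 5.38 CPM in SI and 2.17, 2.25 and 3.002 CPM in LI. SI tissue was the lowest group and SI monolayers the highest, and the LI groups overlapped. It rose in SI monolayers by 1.92 (SE 0.22, edgeR adjusted p = 1.5e-06) on the log2 scale, LI gave -0.52 (edgeR adjusted p = 0.0440), and the interaction of 2.44 (edgeR adjusted p = 9.13e-06) was called. SI over LI was -1.12 (SE 0.22, edgeR adjusted p = 0.000467) in tissue and 1.32 (SE 0.22, edgeR adjusted p = 7.62e-05) in monolayers, called in opposite directions; the tissue value was -0.90 without SI tissue replicate 3 and -0.94 without LI tissue replicate 3, and then not called.

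Abcb4, the phosphatidylcholine exporter of bile canaliculi, stayed under 1 CPM, at 0.0879 to 0.278 CPM in SI tissue and 0.412 to 0.739 CPM in LI monolayers. It was called higher in SI monolayers at 1.09 (SE 0.44, edgeR adjusted p = 0.0453), a call lost without SI tissue replicate 3 (0.71), SI monolayers replicates 2 (1.12) or 3 (1.03), LI tissue replicate 1 (1.09), with upper quartile scaling (1.05), without a filter (1.09) or with only the 2 groups compared (1.12). SI over LI tissue was -1.01 (edgeR adjusted p = 0.0667) for Abcb4, and was called at -1.09 with upper quartile scaling and -1.09 without LI monolayers replicate 3. 1.36% of the 50-base stretches of Abcb4 exons occur in Abcb1a, which is far more abundant, so the low Abcb4 values are uncertain. Abca7, a phospholipid transporter of phagocytes, stood at 39.7 to 51.4 CPM in SI tissue and 53.6 to 58.5 CPM in LI tissue and was called in no comparison. Abcg4, a sterol exporter best known from brain, stood at 0.0290 to 0.294 CPM in LI monolayers and 0.278 to 0.454 CPM in SI tissue and was not called either.

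Around these pumps, 14 further genes of enterocyte sterol handling were tested. 7 were called in SI monolayers against tissue, 3 higher and 4 lower, and 4 in LI, 2 higher and 2 lower. Between regions 7 were higher in SI tissue and 2 in LI tissue, and 10 were higher in SI monolayers and 1 in LI monolayers. Npc1l1, which takes up the sterols that Abcg5 and Abcg8 return, had a log2 fold change of SI over LI of 8.05 in tissue and 5.26 in monolayers, and fell in SI monolayers with a log2 fold change of -1.71 (SE 0.53, edgeR adjusted p = 0.0218). Scarb1, a receptor for high-density lipoprotein, rose by 2.07 (SE 0.074, edgeR adjusted p = 1.65e-12) in SI monolayers and was lower in SI than in LI tissue at -2.52. Cyp27a1, a sterol hydroxylase, fell with log2 fold changes of -2.21 in SI and -2.93 in LI. Mylip, a ligase that degrades lipoprotein receptors and a known target of the same sterol sensor as Abca1 and Abcg1, had a log2 fold change of -1.43 in LI monolayers against tissue. Nr0b2 was at 0 in both LI groups and under 1 CPM in SI.

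The 14 remaining A subfamily genes include transporters of lipids in skin, lung, eye and brain; 9 were tested and Abca6, Abca8a, Abca15, Abca16 and Abca17 were not. 3 were higher and 1 lower in SI monolayers than in SI tissue, and 2 were higher and 3 lower in LI monolayers than in LI tissue, with median log2 fold changes of -0.19 and -0.26. Between tissues 2 were higher in SI and 2 in LI, and between monolayers 1 in SI and 1 in LI, with medians of -0.21 and -0.11.

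Abca12, which loads ceramides into the lamellar bodies of skin, stood at 0.140, 0.154 and 0.0293 CPM in SI tissue and 16.6, 29.8 and 10.4 CPM in LI tissue. Abca12 in monolayers stood at 5.91, 6.04 and 6.52 CPM in SI and 8.67, 9.15 and 8.18 CPM in LI. SI tissue was near the floor, SI monolayers were within reach of LI monolayers, and LI tissue was the highest and most spread group. Abca12 rose in SI monolayers by 5.84 (SE 0.55, edgeR adjusted p = 6.55e-06) on the log2 scale and fell in LI monolayers, with a log2 fold change of -1.13 (SE 0.33, edgeR adjusted p = 0.0110), and the interaction of 6.97 (edgeR adjusted p = 1.34e-05) was called. Without LI tissue replicate 2 the LI value was -0.64 and with only the 2 groups compared -1.14, neither called. SI over LI was -7.46 (SE 0.53, edgeR adjusted p = 9.65e-07) in tissue, a call, and -0.49 (edgeR adjusted p = 0.250) in monolayers, not one.

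Abca13, a very long transporter of unsettled function, was detected in LI tissue only, at 1.95, 3.41 and 2.52 CPM there, 0.0700, 0.0617 and 0.0586 CPM in SI tissue and 0 in all 6 monolayer libraries. Against the floor of 3 counts per library it was at least 56.7-fold lower in LI monolayers than in LI tissue and at least 1.51-fold lower in SI monolayers than in SI tissue, where it held few counts. LI tissue exceeded SI tissue, with a log2 fold change of SI over LI of -5.34 (SE 0.42, edgeR adjusted p = 4.13e-07). Abca4, the retinoid transporter of photoreceptors, was the reverse, at 0.175, 0.0925 and 0.0293 CPM in SI tissue and 0.323, 0 and 0.0913 CPM in LI tissue. Abca4 in monolayers stood at 1.58, 1.48 and 1.31 CPM in SI and 5.72, 6.75 and 6.72 CPM in LI. Each monolayer library was above all tissue libraries. Abca4 rose by 3.90 (SE 0.67, edgeR adjusted p = 0.000317) in SI and 5.52 (SE 0.61, edgeR adjusted p = 5.45e-06) in LI on the log2 scale, and by 4.56 without SI tissue replicate 1 and 7.06 without LI tissue replicate 1. It was lower in SI than in LI monolayers, at -2.14 (SE 0.47, edgeR adjusted p = 0.00248), and the interaction of -1.62 (edgeR adjusted p = 0.227) was not called, but reached -3.16 with a call without LI tissue replicate 1.

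Abca8b, one of 5 neighbouring A subfamily genes on chromosome 11, stood at 0.490, 0.201 and 0.410 CPM in SI tissue and 0.0807, 0.0795 and 0.131 CPM in LI tissue. Abca8b in monolayers stood at 8.79, 10.4 and 9.97 CPM in SI and 0.449, 0.342 and 0.383 CPM in LI. SI monolayers were far above the other 9 libraries. It rose by 4.73 (SE 0.25, edgeR adjusted p = 1.71e-10) in SI and by 1.995 (SE 0.35, edgeR adjusted p = 8.11e-05) in LI on the log2 scale, with a called interaction of 2.73 (edgeR adjusted p = 0.000179). SI exceeded LI by 1.89 (SE 0.35, edgeR adjusted p = 0.000251) in tissue and by 4.62 (SE 0.25, edgeR adjusted p = 2.66e-10) in monolayers. Its neighbours stayed low: Abca5 at 0.770 to 0.893 CPM in SI tissue and 1.56 to 1.94 CPM in LI monolayers, Abca9 at up to 0.269 CPM, and Abca6 and Abca8a under the detection limit. Abca5 was not called with all libraries, and in LI was at 1.17 with a call without LI tissue replicate 2. Abca9 had -2.01 (edgeR adjusted p = 0.0617) in LI and was called at -3.68 without LI monolayers replicate 3, at -2.01 without SI tissue replicate 2 and at -2.01 with only the 2 groups compared. With the replicate number as a block Abca9 was called in LI at -2.30.

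Abca2, a lipid transporter of lysosomes and myelin, stood at 22.1, 23.98 and 18.2 CPM in SI tissue and 11.05, 9.73 and 8.61 CPM in LI tissue. Abca2 in monolayers stood at 13.3, 14.4 and 13.7 CPM in SI and 8.17, 8.06 and 8.22 CPM in LI. SI was above LI in both preparations and tissue above monolayers in each region, with no overlap. SI exceeded LI tissue by 1.13 (SE 0.11, edgeR adjusted p = 2.01e-07) on the log2 scale, the one comparison in which it was called. Abca3, which fills the surfactant bodies of the lung, stood at 42.8 to 56.97 CPM in SI tissue and 60.98 to 62.8 CPM in LI monolayers and was called in none; 9.75% of its exon bases overlap a transcript on the other strand. Abca14, of unknown function, fell in LI monolayers from 0.431, 0.172 and 0.326 to 0.0870, 0.137 and 0.0589 CPM, with a log2 fold change of -1.71 (SE 0.57, edgeR adjusted p = 0.0135); without LI tissue replicate 1 the value was -1.40 and was not called.

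Abcb9, a peptide transporter of lysosomes, stood at 21.7, 19.1 and 18.98 CPM in SI tissue and 7.83, 7.45 and 7.11 CPM in LI tissue. Abcb9 in monolayers stood at 7.28, 9.82 and 10.003 CPM in SI and 1.74, 1.66 and 1.84 CPM in LI. LI monolayers were the lowest, SI tissue the highest, and no groups compared overlapped. It fell in both regions, with log2 fold changes of -1.14 (SE 0.12, edgeR adjusted p = 3.56e-07) in SI and -2.09 (SE 0.13, edgeR adjusted p = 5.09e-10) in LI, and without SI monolayers replicate 1 the SI value was -0.97 and not called. SI exceeded LI by 1.42 (SE 0.12, edgeR adjusted p = 4.17e-08) in tissue and 2.37 (SE 0.13, edgeR adjusted p = 3.71e-10) in monolayers. The interaction of 0.95 (edgeR adjusted p = 0.000299) missed the fold threshold and passed it without SI tissue replicate 1 (1.02), SI monolayers replicate 1 (1.20), LI monolayers replicates 1, 2 or 3 (1.05, 1.03 and 1.11) or with upper quartile scaling (1.03).

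Abcb10, a mitochondrial transporter needed for haem synthesis, stood at 66.6, 70.8 and 60.9 CPM in SI tissue and 32.3, 36.6 and 34.6 CPM in LI tissue. Abcb10 in monolayers stood at 31.5, 28.5 and 33.4 CPM in SI and 19.4, 18.95 and 17.8 CPM in LI. Monolayers were below the tissue of their region, and LI below SI within each preparation, in every library. It fell in SI, with a log2 fold change of -1.08 (SE 0.075, edgeR adjusted p = 3.43e-09), and was at -0.99 and not called without SI monolayers replicate 2. In LI the value of -0.88 (edgeR adjusted p = 2.6e-08) was not called, except at -1.001 with upper quartile scaling, and the interaction was -0.20 (edgeR adjusted p = 0.135). Gm45890 on the other strand overlaps 10.3% of the exon bases of Abcb10.

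Abcb8, a subunit of the mitochondrial potassium channel, stood at 105, 97.98 and 101 CPM in SI tissue and 61.2, 67.2 and 62.96 CPM in LI tissue. Abcb8 in monolayers stood at 99.99, 102 and 109.7 CPM in SI and 39.97, 38.6 and 41.3 CPM in LI. The SI groups overlapped and lay above both LI groups, and LI monolayers were the lowest. SI exceeded LI monolayers by 1.38 (SE 0.055, edgeR adjusted p = 8.46e-12) on the log2 scale. LI monolayers against tissue gave -0.67 (edgeR adjusted p = 1.28e-08), SI gave 0.039 (edgeR adjusted p = 0.560) and the tissues 0.67 (edgeR adjusted p = 3.33e-08), none of them called.

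Abcb6, a porphyrin transporter, was counted at 0.245, 0.308 and 0.439 CPM in SI tissue and 1.06, 0.994 and 1.17 CPM in LI tissue. Abcb6 in monolayers stood at 0.379, 0.394 and 0.418 CPM in SI and 0.174, 0.307 and 0.162 CPM in LI. LI tissue was the highest group. Its values are uncertain, since 55.2% of its exon bases are also annotated to Gm29253 on the same strand, and how reads from these bases were assigned is not stated. As counted, Abcb6 fell in LI monolayers, with a log2 fold change of -2.33 (SE 0.35, edgeR adjusted p = 2.12e-05), was lower in SI than in LI tissue at -1.69 (SE 0.34, edgeR adjusted p = 0.000498), and had a called interaction of 2.59 (edgeR adjusted p = 0.000478). SI over LI monolayers was 0.90 (edgeR adjusted p = 0.0507), and 1.26 with a call without LI monolayers replicate 2.

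Abcd4, the lysosomal vitamin B12 transporter, stood at 32.6, 29.6 and 27.7 CPM in SI tissue and 15.3, 15.4 and 15.1 CPM in LI tissue. Abcd4 in monolayers stood at 30.3, 30.6 and 31.5 CPM in SI and 5.51, 4.85 and 4.33 CPM in LI. The SI groups overlapped, LI tissue lay below them and LI monolayers were the lowest. It fell in LI monolayers, with a log2 fold change of -1.64 (SE 0.089, edgeR adjusted p = 8.14e-11), SI gave 0.040 (edgeR adjusted p = 0.698), and the interaction of 1.68 (edgeR adjusted p = 1.7e-08) was called. SI exceeded LI monolayers by 2.65 (SE 0.090, edgeR adjusted p = 1.23e-12); between tissues it was 0.97 (edgeR adjusted p = 5.45e-08), and 1.03 with a call without SI tissue replicate 3.

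Abcd3, which carries branched and dicarboxylic fatty acids into peroxisomes, was among the leading ABC genes by TPM in each group and stood at 181 to 183 CPM in LI monolayers and 236 to 312 CPM in SI tissue. It was called in no comparison. Abcd2, another transporter of this subfamily, stayed at 0.105 to 0.293 CPM in SI tissue and 0.104 to 0.215 CPM in LI tissue, was tested, and was not called.

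The E and F subfamilies were all tested, and 2 of 4 rose in SI monolayers and 3 of 4 in LI monolayers, with median log2 fold changes of 0.83 and 1.23. Between regions edgeR and DESeq2 each called 0 of 4 in tissue and 0 of 4 in monolayers; 4 in tissue and 0 in monolayers had an unadjusted p under 0.05 in edgeR. The regional log2 fold changes had medians of 0.34 and -0.074.

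Abce1, which splits ribosomes after termination, stood at 84.3, 79.9 and 86.1 CPM in SI tissue and 60.02, 62.9 and 66.9 CPM in LI tissue. Abce1 in monolayers stood at 193, 192 and 182 CPM in SI and 197, 202 and 207 CPM in LI. Both monolayer groups lay far above both tissues, with LI tissue the lowest. It rose by 1.18 (SE 0.052, edgeR adjusted p = 2.05e-11) in SI and by 1.67 (SE 0.053, edgeR adjusted p = 1.43e-13) in LI on the log2 scale, and the interaction was -0.49 (edgeR adjusted p = 4.27e-05), under the fold threshold. Abcf2, a cytosolic ATPase linked to ribosomes, stood at 53.1, 54.5 and 56.5 CPM in SI tissue and 47.1, 47.9 and 51.8 CPM in LI tissue. Abcf2 in monolayers stood at 118, 117 and 124 CPM in SI and 124, 124 and 129 CPM in LI. The monolayers lay far above the tissues and overlapped each other. Abcf2 rose by 1.13 (SE 0.052, edgeR adjusted p = 2.83e-11) in SI and by 1.36 (SE 0.052, edgeR adjusted p = 1.21e-12) in LI.

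Abcf1, a partner of a translation initiation factor, stood at 169.8, 167 and 158 CPM in SI tissue and 115, 120 and 116 CPM in LI tissue. Abcf1 in monolayers stood at 228, 236 and 246 CPM in SI and 248, 251 and 252 CPM in LI. Monolayers were above tissue in each region, and LI tissue was the lowest group. It rose in LI by 1.10 (SE 0.048, edgeR adjusted p = 5.61e-12) on the log2 scale, 0.98 with upper quartile scaling and then not called, and in SI the value of 0.52 (SE 0.047, edgeR adjusted p = 9.05e-08) missed the fold threshold; the interaction was -0.58 (edgeR adjusted p = 3.31e-06). Abcf3, an ATPase with antiviral activity, stood at 52.1 to 56.4 CPM in LI tissue and 70.6 to 72.3 CPM in SI monolayers and was called in no comparison.

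**Figure D3:**
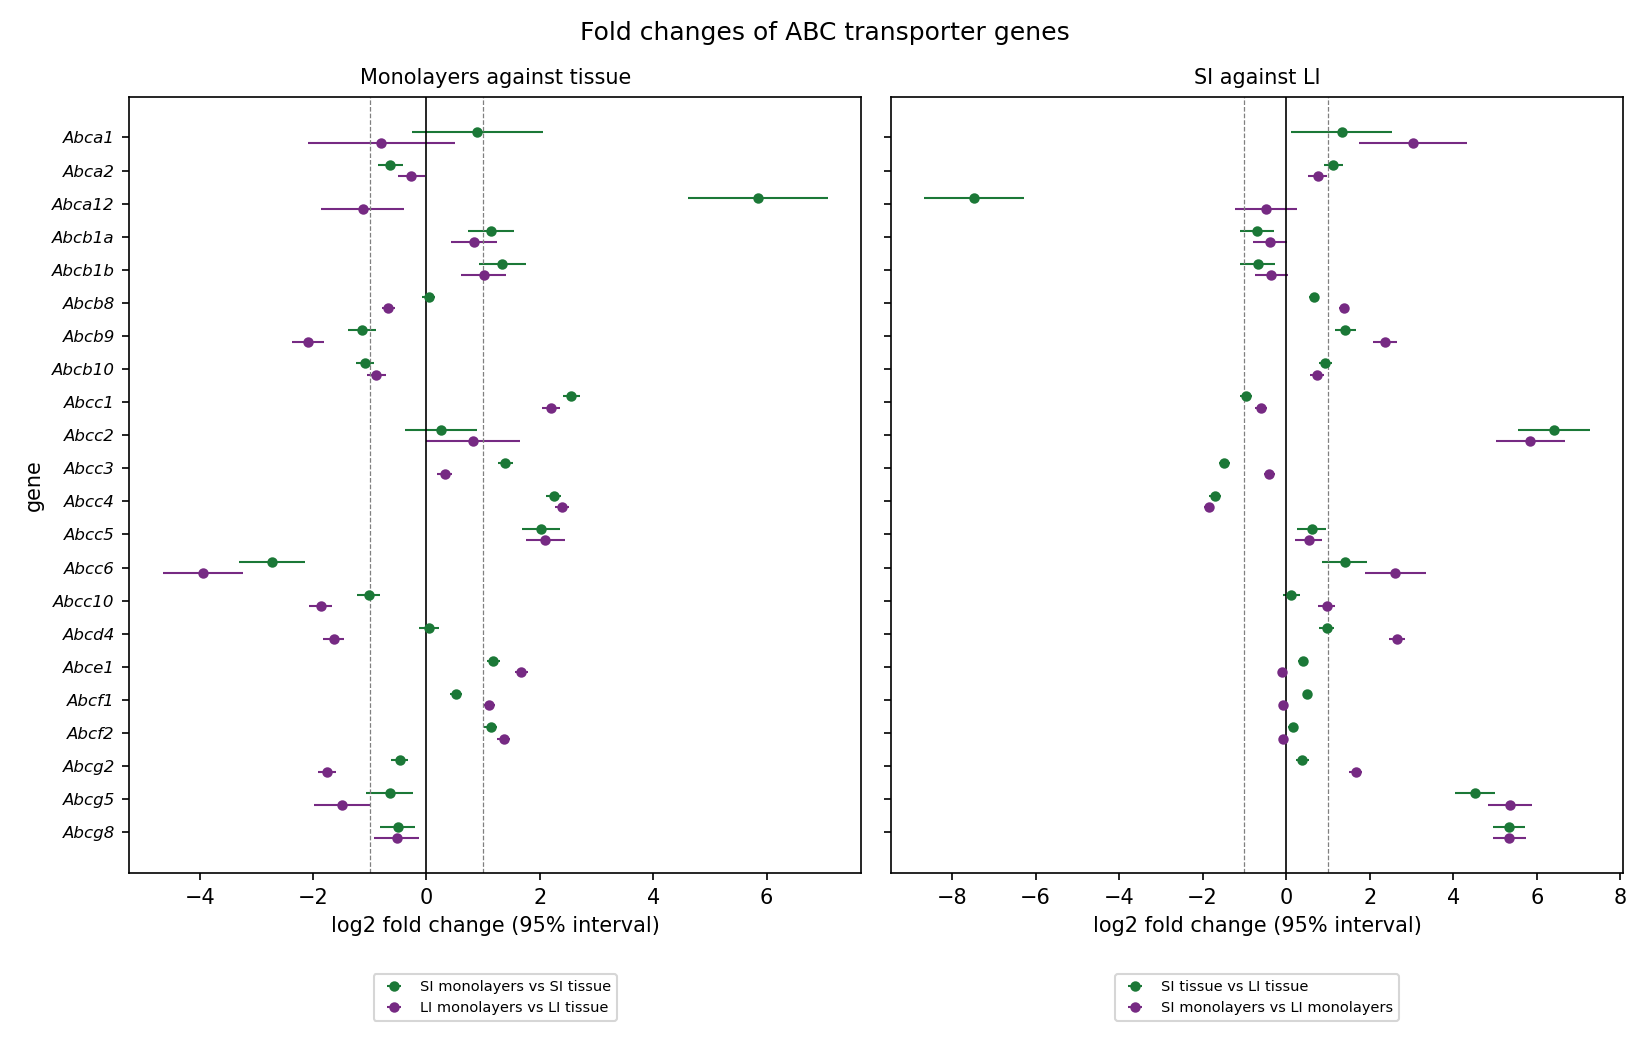
Log2 fold changes with 95% intervals (horizontal axis) of 22 ABC transporter genes (vertical axis), for monolayers against tissue on the left and SI against LI on the right; dashed lines mark a log2 fold change of 1 in each direction. Abcc2, Abcg5 and Abcg8 lie far from 0 between regions in both tissue and monolayers, and Abca12 does so between tissues only. Abcc1, Abcc4, Abcc5, Abce1 and Abcf2 lie past 1 in the monolayers of both regions.

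The 6 remaining members are the sulfonylurea receptors Abcc8 and Abcc9 and the genes Abcc6, Abcc12, Abcb5 and Abcg3, of which Abcc6, Abcc8 and Abcg3 were tested. 2 of the 3 fell in the monolayers of each region, with median log2 fold changes of -2.73 in SI and -3.94 in LI, and 2 were higher in SI in both tissue and monolayers, with medians of 1.40 and 2.61.

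Abcc6, known from the calcification disorder pseudoxanthoma elasticum, stood at 16.7, 11.7 and 10.9 CPM in SI tissue and 4.86, 4.47 and 5.57 CPM in LI tissue. Abcc6 in monolayers stood at 1.78, 2.02 and 2.12 CPM in SI and 0.174, 0.615 and 0.206 CPM in LI. Tissue was above monolayers in both regions and SI above LI, and LI monolayers replicate 2 was well above its companions. It fell in both regions, with log2 fold changes of -2.73 (SE 0.27, edgeR adjusted p = 8.61e-07) in SI and -3.94 (SE 0.33, edgeR adjusted p = 9.84e-08) in LI, SI exceeded LI by 1.40 (SE 0.25, edgeR adjusted p = 0.000303) in tissue and 2.61 (SE 0.34, edgeR adjusted p = 1.95e-05) in monolayers, and the interaction was 1.21 (edgeR adjusted p = 0.0320). Without LI monolayers replicate 2 the LI value was -4.76, the monolayer contrast 3.39 and the interaction 2.08. The call of the interaction was lost without SI tissue replicates 2 (1.14) or 3 (1.10), or LI tissue replicates 1 (1.23) or 3 (1.13). The same call was lost without LI monolayers replicates 1 (1.003) or 3 (1.08). Without a filter on low counts (1.25) and with the replicate number as a block (1.23) it was lost as well.

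Abcg3, a rodent relative of Abcg2, stood at 0.980, 0.895 and 0.498 CPM in SI tissue, 0.269, 0.305 and 0.313 CPM in LI tissue, 0.0292, 0.0815 and 0.0557 CPM in SI monolayers and 0 in LI monolayers. It fell in SI monolayers, with a log2 fold change of -3.78 (SE 0.54, edgeR adjusted p = 3.11e-05) and was at least 6.39-fold lower in LI monolayers than in LI tissue. SI monolayers held so few counts that no fold over LI monolayers is given, although edgeR called it, and the called interaction also rests on the group at 0. That interaction was no longer called under 13 of 16 alternatives, among them leaving out SI tissue replicate 2 or 3, SI monolayers replicate 2 or 3, any LI tissue library or any LI monolayer library, with values from 3.28 to 3.95 over the libraries left out. SI exceeded LI tissue by 1.41 (SE 0.45, edgeR adjusted p = 0.0170), and by 1.23 without SI tissue replicate 1, 1.31 without SI tissue replicate 2 and 1.35 without LI tissue replicate 1, none of these called. Abcc8, the sulfonylurea receptor of pancreatic islets and endocrine cells, stood at 1.52 to 2.20 CPM in SI tissue and 4.94 to 5.51 CPM in LI monolayers and was not called; between tissues it was -0.84 (edgeR adjusted p = 0.00332), and -1.07 with a call without LI tissue replicate 3. Abcc12, not tested with all libraries, passed the filter and was called between tissues without SI tissue replicate 3 (3.33), LI tissue replicate 2 (6.35) or LI monolayers replicates 2 (2.87) or 3 (2.87). Its counts of 0 to 16 make these values depend on few reads.

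3 ABC proteins carry other symbols and lie outside the rule. Tap1 and Tap2, which load peptides for antigen presentation, fell in the monolayers of both regions, with log2 fold changes of Tap1 of -2.63 (SE 0.31, edgeR adjusted p = 6.97e-05) in SI and -3.67 (SE 0.32, edgeR adjusted p = 6.44e-06) in LI and of Tap2 of -1.68 (SE 0.14, edgeR adjusted p = 4.67e-07) and -1.80 (SE 0.14, edgeR adjusted p = 1.45e-07). Cftr, the chloride channel of the family, stood at 137 ± 6.80 CPM in SI tissue, 109 ± 6.26 CPM in LI tissue, 82.8 ± 6.41 CPM in SI monolayers and 17.4 ± 0.823 CPM in LI monolayers. It fell in LI monolayers, with a log2 fold change of -2.65 (SE 0.070, edgeR adjusted p = 1.8e-14), and SI exceeded LI monolayers by 2.25. Cftr was the 1 of the 3 called between monolayers.

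10 nuclear receptors and sensors known to control ABC genes were tested. 1 was lower in SI monolayers than in tissue, and 1 was higher and 5 lower in LI monolayers. Between tissues 3 were higher in SI and 1 in LI, and between monolayers 3 were higher in SI. Nr1h3, the oxysterol receptor that controls Abca1 and Abcg1, stood at 58.8 ± 11.7 CPM in SI tissue, 27.7 ± 2.41 CPM in LI tissue, 15.2 ± 0.875 CPM in SI monolayers and 1.28 ± 0.402 CPM in LI monolayers, and fell with log2 fold changes of -1.95 (SE 0.16, edgeR adjusted p = 4.91e-07) in SI and -4.45 (SE 0.20, edgeR adjusted p = 9.15e-10) in LI. Nr1i3, a xenobiotic receptor, had a log2 fold change of SI over LI of 3.57 in tissue and 5.09 in monolayers, and fell in LI monolayers with a log2 fold change of -2.49. Ppara, the fatty acid receptor, fell in LI monolayers with a log2 fold change of -2.20, where Ahr rose by 1.58. Nr1h4, the bile acid receptor, was the 1 of the 10 that was higher in LI tissue, at -1.19. Nr1i2, the pregnane receptor that controls Abcb1a, fell in LI monolayers with a log2 fold change of -1.52 (SE 0.071, edgeR adjusted p = 1.28e-11). Abcb1a itself was higher there than in LI tissue, at 0.83 (edgeR adjusted p = 0.00216), which was under the fold threshold. A link between the 2 genes was not tested.

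Of 15 solute carriers of drugs, organic anions and bile acids, 1 was higher and 7 lower in SI monolayers than in tissue, and 3 were higher and 6 lower in LI monolayers. Between regions 8 were higher in SI tissue, and 6 were higher in SI monolayers and 1 in LI monolayers. Slc10a2, the bile acid importer of the ileum, rose by 2.33 (SE 0.56, edgeR adjusted p = 0.00623) in SI and 3.38 (SE 0.59, edgeR adjusted p = 0.000830) in LI. Slc15a1, the peptide importer, fell with log2 fold changes of -4.47 in SI and -4.22 in LI, and Slc51b, 1 part of the basolateral bile acid exporter that works beside Abcc3, fell with -3.05 and -2.74. Slc22a4, a cation carrier, had the largest regional value in tissue, a log2 fold change of SI over LI of 5.43.

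Marker lists were set beside these results, and their part in the ABC values was not tested. The gene said to lead a list has its highest mean CPM over the 12 libraries and need not lead in every group. 7 epithelial markers, led by Krt8, summed to 12761 to 13978 CPM in SI tissue, 21683 to 22088 in LI tissue, 26935 to 27733 in SI monolayers and 35147 to 36257 in LI monolayers; 4 were higher in SI monolayers and 3 in LI monolayers than in tissue, and between tissues 1 was higher in SI and 2 in LI. 11 enterocyte markers, among which Anpep had the highest mean CPM, summed to 21844, 19700 and 13733 CPM in SI tissue, 2237, 2295 and 1742 CPM in LI tissue, 4495, 4374 and 4321 CPM in SI monolayers and 535, 603 and 550.5 CPM in LI monolayers. 8 of these were lower in SI monolayers than in tissue, 4 were lower and 1 higher in LI monolayers, and 9 were higher in SI tissue than in LI tissue and 9, not all the same genes, between monolayers. 6 colonocyte markers, led by Ceacam1, summed to 1596, 2078 and 1637 CPM, 6148, 8382 and 5348 CPM, 638, 625 and 634 CPM and 4208, 4417 and 4298 CPM in the same order of groups; 3 fell in SI monolayers and 5 in LI monolayers, and 4 were higher in LI than in SI in tissue and 4 in monolayers, where 1 was higher in SI.

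5 Paneth cell markers, led by Lyz1, summed to 3729, 6973 and 17897 CPM in SI tissue, 486, 931 and 424 CPM in LI tissue, 5695, 5477 and 5922 CPM in SI monolayers and 49.4, 64.1 and 65.6 CPM in LI monolayers. The LI tissue sum was mostly Ang4, at 430, 901 and 410 CPM, with Lyz1 at 24.6, 11.8 and 7.32 CPM. In SI tissue Defa24 had a mean of 3190 CPM and Lyz1 of 3080 CPM. All 5 Paneth cell markers stood higher in SI than in LI in both preparations and 1 fell in SI and 1 in LI monolayers. 5 stem cell markers, led by Olfm4, summed to 1451, 1218 and 1618 CPM, 90.4, 81.6 and 87.7 CPM, 120, 122 and 113 CPM and 3.12, 8.88 and 7.46 CPM in the same order. Olfm4 made up most of the SI tissue sum, with a mean of 1252 CPM there and 18.4 CPM in SI monolayers. In LI tissue Olfm4 had a mean of 2.23 CPM that rests on replicate 1, with 6.46, 0.159 and 0.0783 CPM in the 3 libraries. Axin2 exceeded it in LI tissue at 31.3 CPM and in SI monolayers at 28.5 CPM. Of the 5 markers, 2 fell in SI monolayers and 4 in LI monolayers, and 4 were higher in SI tissue and 4 in SI monolayers. In LI monolayers Ascl2 and Lgr5 had means of 0.117 ± 0.106 and 0.384 ± 0.157 CPM, and Ascl2 was at 0 in replicate 1. Olfm4 stood at 0.0580, 4.06 and 2.62 CPM there. 12 immune markers, led by Cd74, summed to 572, 1436 and 671 CPM, 1329.6, 1661 and 1236 CPM, 159, 150.3 and 159 CPM and 12.8, 14.8 and 14.7 CPM in the same order; 9 fell and 1 rose in SI monolayers, 10 fell and 1 rose in LI monolayers, 5 were higher in SI and 2 in LI tissue, and 7 were higher in SI and 3 in LI monolayers.

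10 enteroendocrine markers, led by Chgb, summed to 315 to 524 CPM in SI tissue, 269 to 316 in LI tissue, 724 to 766 in SI monolayers and 953 to 1093 in LI monolayers; 3 rose in SI monolayers, 5 rose and 1 fell in LI monolayers, 4 were higher in SI and 2 in LI tissue, and 3 in each region in monolayers. 6 proliferation markers, led by Top2a, summed to 564 to 615 CPM in SI tissue, 457 to 529 in LI tissue, 735 to 745 in SI monolayers and 632 to 678 in LI monolayers, and edgeR called 1, higher in LI monolayers. 11 mesenchymal markers, led by Col1a1, summed to 15.6 to 32.9 CPM in SI tissue, 43.1 to 77.2 in LI tissue, 11.7 to 22.1 in SI monolayers and 35.2 to 55.5 in LI monolayers; 3 fell in SI monolayers, 2 rose and 5 fell in LI monolayers, and 7 were higher in LI tissue and 7 in LI monolayers. 8 endothelial markers, led by Lyve1, summed to between 4.74 and 8.39 CPM in all 12 libraries, with Cdh5 and Emcn at 0 in all 3 SI monolayer libraries; 4 of 7 tested fell in SI monolayers, 2 rose in LI monolayers, and between monolayers 1 was higher in SI and 3 in LI. 6 neural and glial markers summed to between 10.4 and 22.9 CPM in all 12 libraries, and 2 of 5 tested rose in LI monolayers.

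Promoter sequences of 300 bases, from 250 before to 50 after the start, were taken from RefSeq on GRCm38.p6 and were found for 38 of the 50 ABC genes in 45 windows. They are shown for the pair Abcg5 and Abcg8 and for Abcc2, the genes whose regional difference was large in both tissue and monolayers. 6 short motifs were searched on both strands, chosen with the sequences of these genes in view. AGATAA, a form of the site read by GATA factors, was in 11.2% of all 32544 promoters and in those of 6 ABC genes: 3 times in Abcg5 and 3 times in Abcg8, once each in Abca12, Abca14, Abca16 and Abcf2. Other forms of that site, such as the tgataa in the Abcc2 window, were not searched and are not in capitals. GTTAAC, from the site of HNF1, was in 3.04% of promoters and in that of Abcc2. CAAAGTCCA, from the site of HNF4, was in 0.479% and in that of Abcd3. CAAGGTCA, from the site of estrogen-related receptors, was in 1.53% and in those of Abcc10 and Abcg2. TGACNNNGC, the core of the antioxidant response element, was in 12.4% and in those of Abca8b, Abcb1a, Abcc2, Abcc4 and Abcc10. The Abcb1a window, chr5:8566841-8567140, lies outside the gene as annotated in GENCODE release M21, where Abcb1a starts at 8660077. TTTATG, from the site of CDX2, was in 11.9% and in those of Abca1, Abca13 and Abcc12. A match is a run of letters in this window and not a shown site.

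The starts of Abcg5 and Abcg8 lie 110 bases apart on opposite strands, and their windows share 209 bases, which hold the same 3 AGATAA matches. Below are the Abcg8 window, chr17:84682871-84683170 on the + strand, and the Abcc2 window, chr19:43782058-43782357 on the + strand, both 5′ to 3′ with each match to a searched motif in capitals. A second window of Abcg8 held no match.
Abcg8: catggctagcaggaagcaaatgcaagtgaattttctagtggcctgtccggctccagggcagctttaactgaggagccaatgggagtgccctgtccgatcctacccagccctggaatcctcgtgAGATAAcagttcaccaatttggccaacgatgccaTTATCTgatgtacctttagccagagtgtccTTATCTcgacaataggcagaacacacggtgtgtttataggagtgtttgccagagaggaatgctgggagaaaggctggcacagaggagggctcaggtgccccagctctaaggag
Abcc2: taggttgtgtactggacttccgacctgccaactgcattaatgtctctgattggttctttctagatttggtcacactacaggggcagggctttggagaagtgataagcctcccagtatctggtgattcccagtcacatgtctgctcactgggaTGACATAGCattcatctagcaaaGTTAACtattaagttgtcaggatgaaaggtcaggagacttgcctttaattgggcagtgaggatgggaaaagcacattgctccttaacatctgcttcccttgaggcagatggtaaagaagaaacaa

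By position, 5 members lie together on chromosome 11 (Abca8b, Abca8a, Abca9, Abca6 and Abca5), 3 on chromosome 5 (Abcb1a, Abcb1b and Abcb4) and 3 on chromosome 7 (Abca14, Abca15 and Abca16) in the GENCODE annotation of GRCm38. On chromosome 11, Abca8b was called in all 5 comparisons and Abca5 and Abca9 in none. On chromosome 5, Abcb1a, Abcb1b and Abcb4 were each called higher in SI monolayers, and the calls of Abcb1a and Abcb4 were lost without SI tissue replicate 3. On chromosome 7, Abca14 was detected and Abca15 and Abca16 were not, with Abca14 at 0.335 ± 0.182 CPM in SI tissue.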

How the data were processed

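The 12 libraries were sequenced in paired ends, and the authors aligned the reads to GRCm38 with STAR 2.7.9a and counted them per gene with featureCounts 2.0.2, so the deposited values are read counts per gene, unscaled. Neither the strand nor the handling of mates is stated, and 73.4 to 77.4% of counts from 1 to 20 were even numbers, so a floor of 3 counts may stand for fewer fragments. Gene symbols, exon lengths for TPM and positions came from GENCODE release M21 of GRCm38, and promoter sequences from RefSeq (GRCm38.p6). The counts were made on GENCODE vM25, so exon lengths and overlaps of some genes, such as the overlap of Abcb6, may not match them.

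From the counts, genes were filtered by group with filterByExpr, scaled by TMM and fitted with edgeR 4.0.16 (robust quasi-likelihood, R 4.3.3) in 1 model of 4 group means over the 12 libraries; p-values were adjusted by Benjamini-Hochberg over all 19581 genes tested. A gene was called where its adjusted p lay under 0.05 and its log2 fold change was 1 or more in size. Intervals are at 95%. The script was tested on simulated data. 5 contrasts were made: monolayers against tissue in each region, SI against LI in each preparation, and the interaction. The 18 alternatives were DESeq2 1.42.0 with its size factors and Wald test, upper quartile scaling, no filter, no minimum fold change, a block for the replicate number, only the 2 groups compared, and each of the 12 libraries left out. Figures were drawn with matplotlib 3.10.9.

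Values in every library are given for members called in at least 1 contrast with a group mean of at least 10 CPM, and for Abcb1a, Abcb1b, Abcc2, Abcc3, Abcc4, Abcg2, Abca1, Abcg5 and Abcg8; for other members, values by library were added after they were seen. Members were grouped as drug and conjugate efflux, sterol and phospholipid export, other A subfamily, mitochondrial and lysosomal B subfamily, D subfamily, E and F subfamilies, and remaining genes, and set beside ABC genes with other symbols, nuclear receptors, sterol handling, solute carriers and 11 cell type marker lists. Some members and marker genes are not reported here. From these further lists, genes among the largest called changes are named. Members and lists were chosen with earlier results of these data known.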

Additional observations from a re-analysis of the deposited data

Results flagged for a closer look

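The change from tissue to monolayers differed between the small and the large intestine, by edgeR's test of the interaction, for 9 of the 41 tested ABC genes, against 19.96% of all genes tested. The values are log2 differences of the SI change minus the LI change, all relative to the scaling of the libraries. Abca12 had 6.97, with a rise in SI and a fall in LI. Abca8b had 2.73, a rise in both regions that was larger in SI. Abcg1 had 2.44 and Abcc3 had 1.07, each called higher in SI monolayers and not called in LI. Abcb6 had 2.59, Abcd4 had 1.68 and Abcg2 had 1.28, each called lower in LI monolayers and not called in SI; the Abcb6 values are uncertain because of its overlap with another gene. Abcc6 had 1.21, a fall in both regions that was larger in LI, a call lost under 8 of 16 alternatives, with values from 1.003 to 2.08 across them. Abcg3 had a fitted value of 3.58, which depends on how 0 counts in LI monolayers are treated and is no bound; its call was lost under 13 of 16 alternatives.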

How the results depend on the processing

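Across the alternatives that kept the fold threshold, the 80 calls of ABC genes gave 1349 values, of which 1292 kept their call, 57 lost it and 0 turned direction; 67 of the 80 calls were kept under all of these alternatives. Without a minimum fold change, 32 ABC genes passed between LI monolayers and LI tissue, 32 between tissues, 26 between monolayers and 21 in the interaction, by the construction of that rule. When 1 library was left out, 18 to 20 genes were called in SI monolayers against tissue, 20 to 22 in LI, 14 to 18 between tissues, 15 to 16 between monolayers and 7 to 10 in the interaction.

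The labels do not say that equal replicate numbers share a mouse. Deviations from group means correlated between libraries of equal number at -0.0516 to 0.0563 across genes, which are not independent replicates, and the equal number gave the best match for 4 of 12. With the replicate number as a block, 20, 22, 15, 15 and 7 ABC genes were called in the 5 contrasts in the order of the report; Abcc6 and Abcg3 were not called in the interaction, Abca9 was called in LI, and no other call changed.

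With 3 libraries a group and 0.0394 to 0.0508 CPM at the floor, changes of genes under 1 CPM such as Abcb4, Abca9, Abca14 and Abcg3 rest on few counts. Crypts and cultures are mixtures of cells, and region goes together with the way crypts were isolated.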
